A study of Mus musculus with 4 samples.

Results

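The 40 genes of intraflagellar transport and the BBSome were followed through a single-cell RNA dataset of mouse lung. They were taken by symbol from the deposited count matrix of 57010 genes, and every symbol was found on 1 gene. The set holds 6 genes of the IFT-A complex, 8 of the IFT-B core, 5 of the IFT-B periphery, 2 of cytoplasmic dynein-2 and 4 of the kinesin-2 motors. It also holds 8 BBSome subunits, the 2 chaperonin-like genes Bbs10 and Bbs12, the BBSome regulators Lztfl1 and Arl6, and 3 genes that handle ciliary membrane cargo, Arl13b, Arl3 and Tulp3.

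The lungs came from C57Bl6/J mice 8 weeks old and were made into 2 pools. Cre_Pos pooled 6 mice that carried Shh.Cre and a p73 allele floxed at exons 7 to 9. Cre_Neg pooled 6 littermates without Cre that were homozygous for the same floxed allele, so both pools carried the floxed allele. Shh.Cre recombines in lung epithelium, and endothelial, mesenchymal and immune cells lie outside that lineage. Cells were depleted of CD45 positive cells, enriched for EpCAM and sorted as DAPI negative before split-pool barcoding, and each pool was spread over the same 4 sublibraries. The sublibraries are technical aliquots of the pools, and with 1 pool for each genotype no test between genotypes was possible.

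Intraflagellar transport moves protein trains along the microtubules of a cilium. Kinesin-2 carries the trains to the tip with IFT-B, dynein-2 and IFT-A return them to the base, and the BBSome rides on them as an adaptor for membrane proteins. Multiciliated airway cells build many motile cilia, while fibroblasts, pericytes and several epithelial cells build a single primary cilium with the same transport genes.

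After filtering, 8660 Cre_Pos and 7696 Cre_Neg cells were kept, with a median of 8219 and 8713.5 unique molecular identifiers (UMIs) for each cell. Sublibraries held between 1472 and 2392 cells of a pool. Among the kept barcodes, 285 well combinations occurred in 2 or more sublibraries. Cell classes were rebuilt by clustering, and ciliated-like cells were 120 in Cre_Pos and 1201 in Cre_Neg. Only Traf3ip1 and Dync2h1 of the 40 members were among the variable genes used for clustering, so the other 38 did not shape the classes directly. The ciliated-like class was led by axonemal dynein genes such as Dnah5, Dnah6 and Dnah12, and its 20 listed axonemal genes summed to 24815 CPM (counts per 1000000 UMIs of the class) in Cre_Pos and 26931 CPM in Cre_Neg, against 55.1 and 61.6 CPM in fibroblast-like cells. Mesenchymal below means fibroblast-, pericyte- and mesothelial-like cells together, 277 in Cre_Pos and 215 in Cre_Neg. The mix differed between the pools, with 165, 82 and 30 of these cells in Cre_Pos and 137, 20 and 58 in Cre_Neg.

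The sex of origin of the cells differed between the pools and moved with the cell classes. A cell was called from UMIs of Xist or of 4 Y-linked genes. In Cre_Pos, 101 of 528 cells with Y-linked UMIs only were ciliated-like, 19.1% (exact binomial interval 15.9 to 22.7), against 3 of 7108 cells with Xist UMIs only, 0.0422% (0.00870 to 0.123). In Cre_Neg the shares were 15.4% of 1148 Y-linked and 16.5% of 5356 Xist cells. Of the 120 ciliated-like Cre_Pos cells, 101 had Y-linked UMIs only, 3 had Xist UMIs only and 16 had neither kind alone. Genotype and individual animal cannot be told apart within them, while sex is held fixed below by setting Y-linked cells of both pools against each other. Trp73, the targeted gene, stood at 312 CPM in Cre_Pos and 334 CPM in Cre_Neg ciliated-like cells. Counts were given for the whole gene, so they do not check the loss of exons 7 to 9.

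Promoters are shown first because many genes of this set are known targets of RFX transcription factors, which bind the X-box. Windows from 250 bases before to 50 after the annotated start, were read from RefSeq on build GRCm38.p6 and matched 35 of the 40 members. An X-box was searched on both strands as GTTNCC followed after 0 to 3 bases by GGNAAC. It was found in 3 of the 35 windows, 8.57%, against 0.936% of 27025 promoters of all genes. A single arm of the motif, GTTGCC or GGCAAC, which can be part of an X-box, was in 15 of 35, 42.9%, against 14.1% of all. The forkhead motif TGTTTAC or GTAAACA was in 0 of 35 and in 4.05% of all promoters. Among genes listed beside the members, 4 of 16 transition zone promoters and 0 of 16 axonemal promoters held an X-box. A match is a description of the letters, not evidence of binding.

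The 3 windows with an X-box are printed with that of Ttc21b, the member whose expression differed most from the rest, with the X-boxes in capitals. Lztfl1 (chr9:123717576-123717875, minus strand) holds X-boxes of 15 bases that begin 164 bases before and 6 bases after the start. Bbs7 (chr3:36613340-36613639, minus strand) holds one of 14 bases that begins 121 bases before the start. Ift57 (chr16:49699044-49699343, plus strand) holds one of 13 bases that begins 60 bases before it. Ttc21b (chr2:66256568-66256867, minus strand) holds neither an X-box nor a single arm. Lacking both is not particular to Ttc21b. Wdr19, Ift43, Ift74, Bbs9 and Ttc8, all higher in ciliated-like than in mesenchymal cells, also lack both. All printed windows read 5′ to 3′ along the gene.
Lztfl1: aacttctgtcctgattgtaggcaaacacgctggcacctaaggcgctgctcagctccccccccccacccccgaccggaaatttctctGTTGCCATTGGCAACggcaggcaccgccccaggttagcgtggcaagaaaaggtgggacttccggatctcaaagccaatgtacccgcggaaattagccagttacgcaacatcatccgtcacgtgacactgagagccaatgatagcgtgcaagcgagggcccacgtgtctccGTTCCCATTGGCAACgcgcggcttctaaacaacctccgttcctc
Bbs7: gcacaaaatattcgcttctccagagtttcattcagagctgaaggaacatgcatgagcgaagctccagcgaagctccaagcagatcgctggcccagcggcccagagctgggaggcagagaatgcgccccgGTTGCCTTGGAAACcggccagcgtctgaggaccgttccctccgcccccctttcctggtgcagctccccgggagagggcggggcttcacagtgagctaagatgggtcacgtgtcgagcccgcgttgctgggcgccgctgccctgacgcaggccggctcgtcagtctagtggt
Ift57: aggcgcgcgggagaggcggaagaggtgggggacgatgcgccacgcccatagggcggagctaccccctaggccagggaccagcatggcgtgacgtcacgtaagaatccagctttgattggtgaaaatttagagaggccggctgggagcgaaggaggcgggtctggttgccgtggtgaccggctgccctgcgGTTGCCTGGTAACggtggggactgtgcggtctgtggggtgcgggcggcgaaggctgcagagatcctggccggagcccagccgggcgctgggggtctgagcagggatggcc
Ttc21b: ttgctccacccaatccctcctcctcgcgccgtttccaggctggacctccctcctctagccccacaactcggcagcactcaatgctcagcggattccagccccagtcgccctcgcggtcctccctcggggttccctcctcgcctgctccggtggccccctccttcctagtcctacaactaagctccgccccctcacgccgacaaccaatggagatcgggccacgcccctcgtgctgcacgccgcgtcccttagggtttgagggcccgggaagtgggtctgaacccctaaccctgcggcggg

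Ciliated-like cells carried more of nearly the whole set than any other named class. Summed over the 40 members, they held 7554 CPM in Cre_Pos, with sublibraries at 7870, 7667, 7088 and 7809. In Cre_Neg they held 7765 CPM, with sublibraries at 7668, 7772, 7842 and 7776. The sublibraries of both pools overlapped. Mesenchymal cells held 1208 and 1276 CPM, neuroendocrine-like cells 1654 and 1714, AT2-like (surfactant-producing alveolar) cells 918 and 958, and blood endothelium-like cells 826 and 821 in Cre_Pos and Cre_Neg. The ranges over sublibraries of ciliated-like cells and of each of these classes did not overlap.

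Single cells were compared by the same sum. The lowest ciliated-like cell had 3379 summed CPM in Cre_Pos and 4165 CPM in Cre_Neg. No mesenchymal cell of either pool reached that level, and of the AT2-like cells 0 of 1479 in Cre_Pos and 1 of 2080 in Cre_Neg did. Of the neuroendocrine-like cells 2 of 176 in Cre_Pos and 1 of 136 in Cre_Neg reached it, and of the endothelium-like cells 2 of 5645 and 4 of 2766. T cell-like cells reached it in 3 of 126 in Cre_Pos, the highest at 5892 CPM, and in 0 of 61 in Cre_Neg. Free RNA, read from barcodes with at most 50 UMIs, held 1456 and 2029 summed CPM. Setting the axonemal UMIs of mesenchymal cells against those of these barcodes gave a free RNA share of 2.89% in Cre_Pos and 1.71% in Cre_Neg, and for endothelium-like cells it gave 5.13% and 3.03%. For AT2-like cells it gave 1.51% and 0.985%. Every axonemal UMI of a class is counted as free RNA here. The share is therefore too high for a class that transcribes any of these genes itself.

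**Figure D1:**
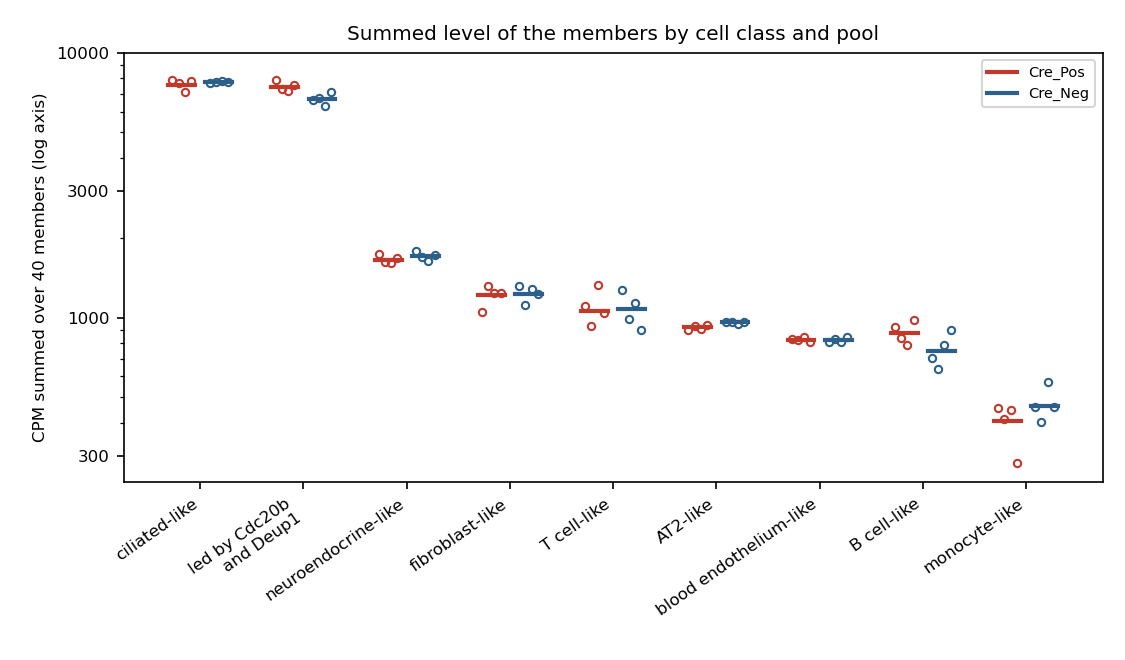
CPM summed over the 40 members (log axis) in each cell class; bars are pool values, open circles are the 4 sublibraries, and Cre_Pos stands left of Cre_Neg. Ciliated-like cells and the cluster led by Cdc20b and Deup1 lie between 6281 and 7870 CPM in every sublibrary, and every other class shown lies below 2000 CPM.

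Against mesenchymal cells, 38 of 39 members with enough UMIs were at least 2-fold higher in ciliated-like cells of Cre_Pos and 38 of 40 in Cre_Neg, and they were the same 38 genes. Over all genes, 23.6% in Cre_Pos and 27.8% in Cre_Neg passed that fold. The median log2 ratio of the members was 2.46 in Cre_Pos and 2.16 in Cre_Neg, against -0.09 and -0.02 for all genes measured. In Cre_Pos 37 members, and in Cre_Neg 38, were higher in all 4 sublibraries. Below, ratios are log2 of CPM with an exact interval of 95% that covers counting error only. Levels of different genes are not compared, because CPM also grows with transcript length.

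**Figure D2:**
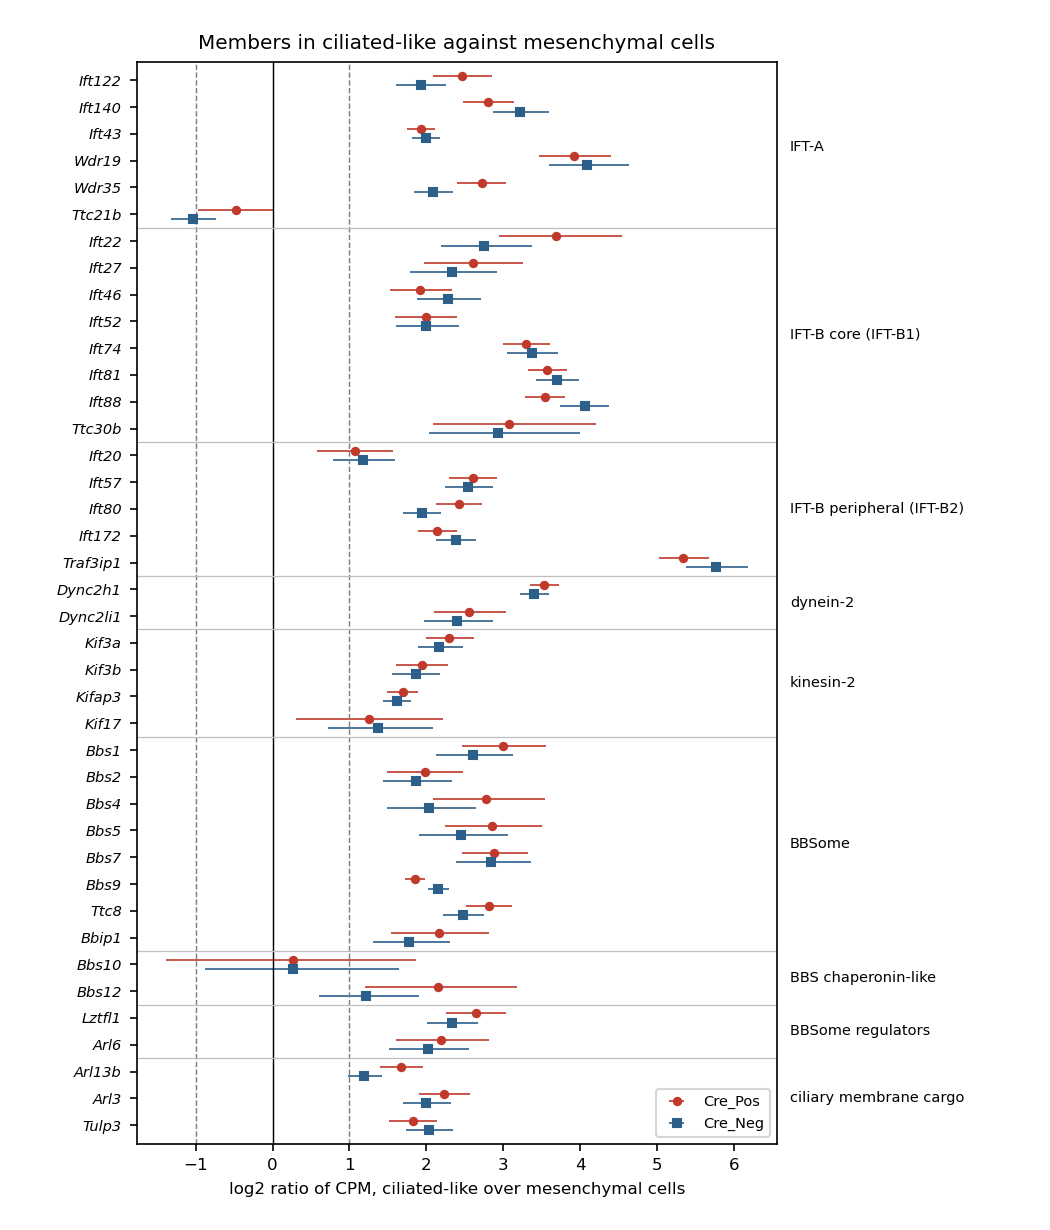
Log2 ratio of CPM in ciliated-like over mesenchymal cells for each member, grouped by complex; points are pool values (Cre_Pos and Cre_Neg), bars are exact 95% intervals and dashed lines mark a 2-fold change. Nearly every member lies right of the 2-fold line, Traf3ip1 farthest at 5.34 and 5.76, and Ttc21b lies left of 0 in both pools.

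In IFT-A, which returns cargo from the tip, Wdr19 had the largest ratio. Wdr19, a core subunit, had 205, 204, 188 and 146 CPM in the ciliated-like cells of the Cre_Pos sublibraries, and 191, 202, 197 and 195 in Cre_Neg. Its mesenchymal level was 12.5 CPM in Cre_Pos and 11.6 in Cre_Neg, a log2 ratio of 3.92 and 4.09. No sublibrary of ciliated-like cells came near the mesenchymal level. Ift43, a small peripheral subunit, had 400, 389, 358 and 345 CPM in Cre_Pos and 341, 357, 359 and 353 in Cre_Neg ciliated-like cells. Mesenchymal cells had 98.6 and 88.8 CPM of it, for log2 ratios of 1.93 and 1.99. Ift122, Ift140 and Wdr35 had log2 ratios of 2.46, 2.80 and 2.72 in Cre_Pos and 1.93, 3.22 and 2.09 in Cre_Neg.

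Ttc21b, which encodes the IFT-A subunit IFT139, was the exception. Its ciliated-like level was 30.2, 13.9, 27.2 and 10.8 CPM in the Cre_Pos sublibraries and 23.0, 20.5, 18.8 and 25.6 CPM in Cre_Neg. Its mesenchymal level was 35.4, 23.4, 47.4 and 25.1 CPM in Cre_Pos and 38.6, 44.3, 44.4 and 51.6 CPM in Cre_Neg. Ciliated-like cells were below mesenchymal cells in every sublibrary of both pools. The log2 ratio was -0.47 (-0.97 to 0.02) in Cre_Pos and -1.04 (-1.32 to -0.74) in Cre_Neg, and in Cre_Neg it passed 2-fold. By part, Cre_Neg had 38.3 CPM in fibroblast-like, 84.5 CPM (14 UMIs) in pericyte-like and 49.8 CPM in mesothelial-like cells, against 21.7 CPM in ciliated-like cells. In Cre_Pos these were 31.1, 21.2 and 48.9 CPM against 22.5 CPM, so Ttc21b was not lower than in pericyte-like cells there. Its paralog Ttc21a, chosen for mention after its values were seen, had 1199 CPM in Cre_Pos and 1163 CPM in Cre_Neg ciliated-like cells, against 0.278 CPM (1 UMI) and 1.05 CPM (3 UMIs) in mesenchymal cells. Ttc21a also stood at 622 and 549 CPM in the cluster led by Cdc20b and Deup1, while AT2-like cells had 0.634 CPM in Cre_Pos and 1.07 CPM in Cre_Neg. The paralog pair thus ran in opposite directions between these classes. How the counting treated reads that fit both genes is not stated in the labels.

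In the IFT-B core, Ift88 and Ift81 led. Ift88, needed to assemble cilia, had 516, 466, 402 and 445 CPM in Cre_Pos and 468, 484, 486 and 501 CPM in Cre_Neg ciliated-like cells, against 39.3 and 29.1 CPM in mesenchymal cells. The log2 ratio was 3.54 in Cre_Pos and 4.06 in Cre_Neg. Ift81, which binds tubulin together with Ift74, had 534, 484, 453 and 394 CPM in Cre_Pos and 488, 507, 520 and 530 CPM in Cre_Neg, against 39.8 and 39.3 CPM in mesenchymal cells. This gave log2 ratios of 3.57 and 3.70. All 8 core members passed 2-fold in both pools, with a median log2 ratio of 3.18 in Cre_Pos and 2.84 in Cre_Neg. Ift46 at 1.92 in Cre_Pos and Ift52 at 2.00 in Cre_Neg were the lowest of them.

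The periphery of IFT-B held the member with the largest ratio and one with a small ratio. Traf3ip1, which encodes the microtubule-binding subunit IFT54, had 959, 968, 878 and 1060 CPM in Cre_Pos and 1017, 958, 987 and 995 CPM in Cre_Neg ciliated-like cells. Mesenchymal cells had 23.4 and 18.2 CPM of it. Its log2 ratio, 5.34 (5.03 to 5.68) in Cre_Pos and 5.76 (5.37 to 6.18) in Cre_Neg, was the largest of all members. Ift20, which also acts at the Golgi, had 37.7, 35.7, 34.9 and 37.8 CPM in Cre_Pos and 44.2, 45.9, 38.9 and 48.7 CPM in Cre_Neg, against 17.3 and 19.7 CPM in mesenchymal cells. It passed 2-fold only narrowly, at 1.07 and 1.18. Against AT2-like cells, which had 33.9 and 39.6 CPM, its log2 ratio was 0.10 (-0.24 to 0.43) in Cre_Pos and 0.17 (0.03 to 0.30) in Cre_Neg. Ift20 was thus at a similar level in AT2-like and in ciliated-like cells. Ift57, Ift80 and Ift172 had ratios of 2.61, 2.42 and 2.14 in Cre_Pos and 2.54, 1.94 and 2.39 in Cre_Neg.

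Among the motors, dynein-2 stood above kinesin-2 in its ratio. Dync2h1, the dynein-2 heavy chain, had 944, 944, 860 and 806 CPM in Cre_Pos and 891, 916, 874 and 907 CPM in Cre_Neg ciliated-like cells, against 77.1 and 84.9 CPM in mesenchymal cells. Its log2 ratios were 3.53 and 3.40, and those of the light intermediate chain Dync2li1 were 2.55 and 2.40. Kifap3, the accessory subunit of heterotrimeric kinesin-2, had 270, 248, 276 and 299 CPM in Cre_Pos and 276, 277, 292 and 253 CPM in Cre_Neg, against 84.4 and 89.8 CPM in mesenchymal cells. Its log2 ratios were 1.69 and 1.62, and those of the motor subunits were 2.30 and 2.17 for Kif3a and 1.94 and 1.86 for Kif3b. Kif3c, an alternative motor subunit that is not a member, was lower in ciliated-like cells, at 6.06 CPM in Cre_Pos and 8.01 in Cre_Neg, against 24.0 and 23.9 CPM in fibroblast-like cells. Kif17, a homodimeric kinesin-2, had 11.3 CPM in Cre_Pos and 18.1 CPM in Cre_Neg ciliated-like cells against 4.73 and 7.02 CPM in mesenchymal cells, from only 17 and 20 mesenchymal UMIs.

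All 8 BBSome subunits passed 2-fold in both pools, with median log2 ratios of 2.79 and 2.30. Bbs9, a core subunit, had 694, 744, 649 and 720 CPM in Cre_Pos and 691, 716, 720 and 701 CPM in Cre_Neg ciliated-like cells, against 193 and 159 CPM in mesenchymal cells. The ratio was 1.85 in Cre_Pos and 2.15 in Cre_Neg on the log2 scale. The sublibraries of ciliated-like and mesenchymal cells did not overlap. Bbs1 and Bbs7 had the highest ratios of the complex, at 2.99 and 2.88 in Cre_Pos and 2.61 and 2.84 in Cre_Neg. Bbip1, the smallest subunit, had 2.16 and 1.78.

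The genes that assemble or steer the BBSome were mixed. Bbs10, a chaperonin-like gene needed to assemble it, was the member with the fewest UMIs, 7 in Cre_Pos and 58 in Cre_Neg ciliated-like cells. Its ratio was 0.26 (-0.88 to 1.64) in Cre_Neg, and it was under the UMI minimum in Cre_Pos, so a difference was not detectable at this depth. Bbs12 had 18.1, 19.8, 12.9 and 13.5 CPM in Cre_Pos and 17.0, 17.9, 19.6 and 17.3 CPM in Cre_Neg ciliated-like cells, against 3.62 and 7.72 CPM in mesenchymal cells. Lztfl1, which limits BBSome entry into cilia, had 139, 127, 111 and 105 CPM in Cre_Pos and 142, 151, 137 and 139 CPM in Cre_Neg, against 19.5 and 28.4 CPM. The log2 ratios of Lztfl1 were 2.64 and 2.33, and those of Arl6, the GTPase that recruits the BBSome to membranes, were 2.19 and 2.02.

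The 3 genes of ciliary membrane cargo had medians of 1.83 and 2.00. Arl13b, a GTPase of the ciliary membrane, had 154, 129, 123 and 216 CPM in Cre_Pos and 153, 151, 145 and 147 CPM in Cre_Neg ciliated-like cells, against 46.5 and 65.3 CPM in mesenchymal cells. Its log2 ratio was 1.67 in Cre_Pos and 1.19 in Cre_Neg. Arl3, which releases lipid-anchored cargo inside the cilium, had 2.23 and 2.00, and Tulp3, which delivers receptors with IFT-A, had 1.83 and 2.03.

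Other ciliary genes were set beside the members in the same comparison. Of the other IFT, BBSome and motor genes with enough UMIs, 10 of 13 in Cre_Pos and 11 of 14 in Cre_Neg were at least 2-fold higher in ciliated-like than in mesenchymal cells. Transition zone genes, which build the gate at the ciliary base, passed in 16 of 16 and 18 of 18, with medians of 3.20 and 2.97. All 20 axonemal genes passed in both pools. Of these, Dnah5, Dnah9, Dnah12, Hydin, Cfap43, Rsph1 and Ccdc39 were also markers used to name the ciliated-like class. Their passing is thus no separate result. Genes of ciliary membrane signalling ran the other way, with 1 higher and 9 lower in Cre_Pos and 1 higher and 10 lower in Cre_Neg. Among them, the Hedgehog effector Gli2 had 0 CPM in Cre_Pos and 1.17 CPM in Cre_Neg ciliated-like cells, against 326 and 396 CPM in fibroblast-like cells. Inpp5e, a phosphatase of the ciliary membrane, was the one that was higher, with log2 ratios of 1.59 and 1.34.

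Other classes gave the same picture for most members. Over AT2-like cells, 38 of 40 members in each pool were at least 2-fold higher in ciliated-like cells, where 22.3% of all genes in Cre_Pos and 26.4% in Cre_Neg passed. Over blood endothelium-like cells it was 39 of 40 in Cre_Pos and 37 of 40 in Cre_Neg, beside 26.7% and 31.5% of all genes. Over neuroendocrine-like cells it was 31 of 39 and 32 of 40, beside 23.1% and 28.8%. Ttc21b was the lowest member in all 3 contrasts in both pools. Ttc8, the BBSome subunit BBS8, had the largest ratio over endothelium-like cells, at 6.92 in Cre_Pos and 6.90 in Cre_Neg. By the free RNA share, up to 70.7% and 74.4% of its endothelium-like level would be free RNA.

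**Figure D3:**
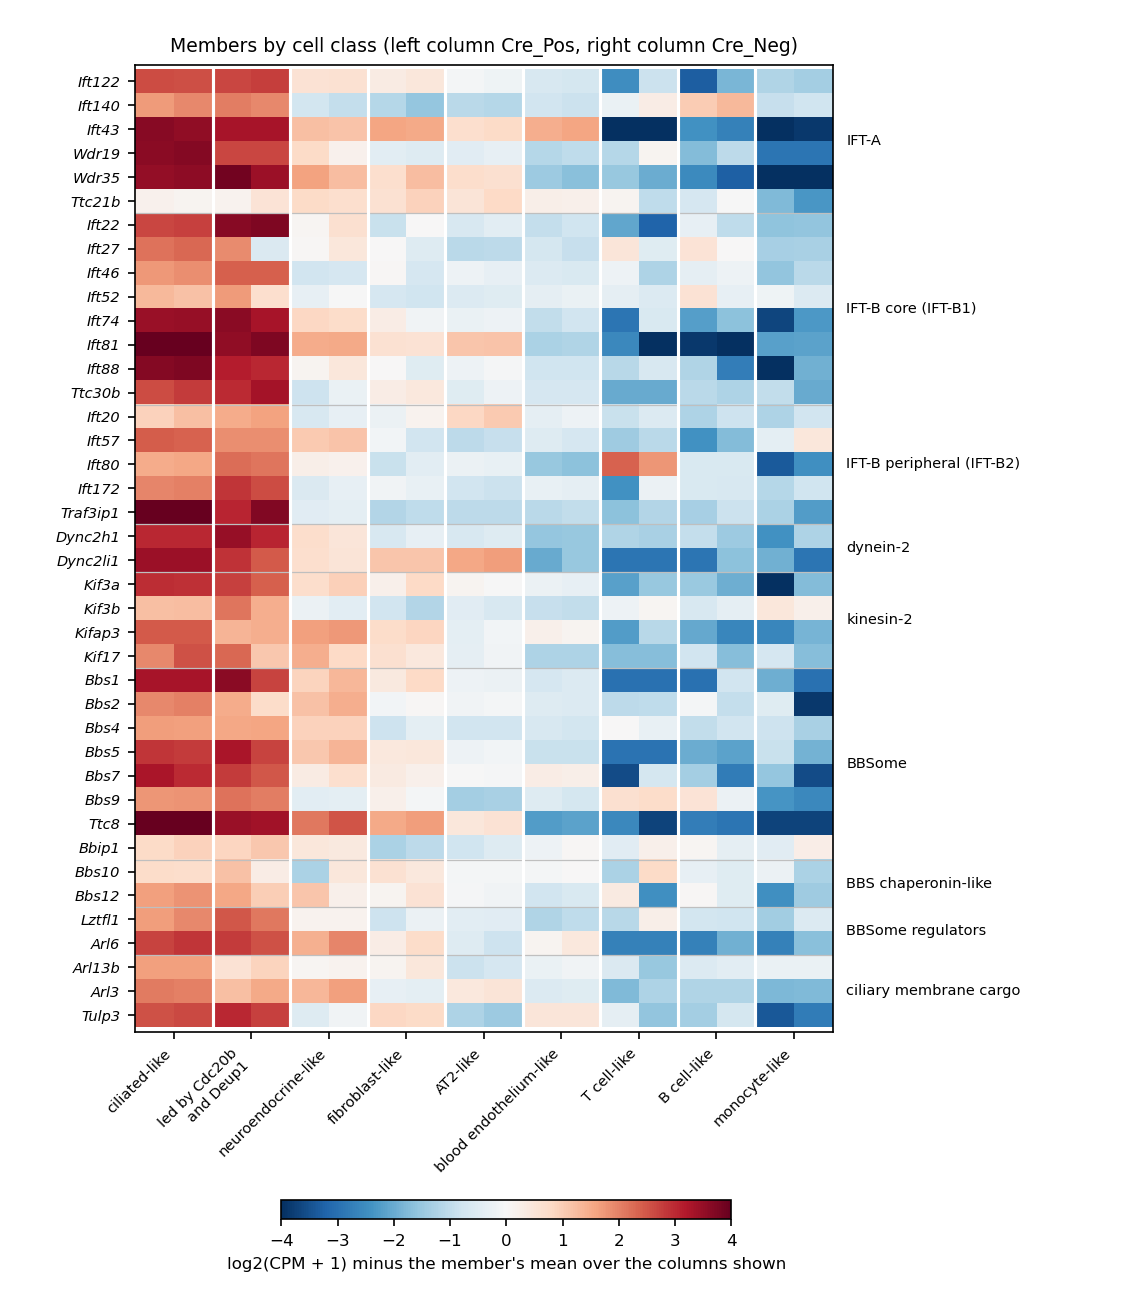
Level of each member in 9 cell classes, with Cre_Pos left of Cre_Neg in each class; colour is log2(CPM + 1) minus the member's own mean over the columns shown. Ciliated-like cells and the cluster led by Cdc20b and Deup1 are red in almost every line, Ttc21b is an exception, and Ift80 is also high in T cell-like cells.

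Detection in single cells was compared after cells were thinned to 2000 UMIs, and cells with fewer were left out. These were 0 ciliated-like cells in Cre_Pos and 3 in Cre_Neg, 6 and 4 fibroblast-like, 8 and 14 neuroendocrine-like, 17 and 56 immune-like, and 24 and 59 AT2-like cells. The median member was found in 21.2% of ciliated-like cells in Cre_Pos and 20.4% in Cre_Neg, against 3.77% and 3.76% of fibroblast-like, 5.95% and 5.33% of neuroendocrine-like and 1.66% and 1.40% of immune-like cells. Without thinning, the ciliated-like values were 82.1% and 75.2%. Traf3ip1 was found in 98 of 120 ciliated-like cells in Cre_Pos, 81.7% (73.6 to 88.1), and in 998 of 1198 in Cre_Neg, 83.3% (81.1 to 85.4). Immune-like cells, most of which are held to lack a cilium, had it in 2.28% and 2.32%, AT2-like cells in 3.37% and 4.21% and fibroblast-like cells in 5.03% and 5.26%. Ttc21b was found in 4.17% and 3.01% of ciliated-like cells and in 5.66% and 7.52% of fibroblast-like cells.

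Fibroblast-like cells, which carry a primary cilium, were then set against immune-like cells. Of members with enough UMIs, 17 of 38 in Cre_Pos and 20 of 37 in Cre_Neg were at least 2-fold higher in fibroblast-like cells, 15 of them in both pools, beside 20.9% and 19.1% of all genes. The medians were 0.82 and 1.15, against -0.32 and -0.29 for all genes. Dync2li1 had 15.5 CPM in fibroblast-like cells of each pool, against 0.247 CPM (1 UMI) in Cre_Pos and 0.680 CPM (5 UMIs) in Cre_Neg immune-like cells, with intervals of the log2 ratio of 3.40 to 11.32 and 3.12 to 6.24. Ttc8 had 36.4 and 40.5 CPM against 1.98 and 4.76 CPM, log2 ratios of 4.20 and 3.09. Wdr35 had 25.3 and 37.8 CPM against 1.98 and 3.13 CPM, log2 ratios of 3.68 and 3.59. These 3 genes, of dynein-2, the BBSome and IFT-A, thus stood low in immune-like cells. Ift140 and Bbip1 were at least 2-fold lower in fibroblast-like cells in both pools, with Ift140 at 24.9 and 18.3 CPM against 56.4 and 64.9 CPM in immune-like cells.

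Blood endothelium-like cells were also low in some of these genes. Over endothelium-like cells, 12 of 40 members in Cre_Pos and 12 of 39 in Cre_Neg were at least 2-fold higher in fibroblast-like cells, 9 of them in both pools, beside 19.1% and 18.9% of all genes. The members' medians were 0.49 and 0.60. Ttc8 was again among them, at 36.8, 30.2, 48.4 and 33.1 CPM in Cre_Pos and 36.3, 28.0, 60.9 and 29.1 CPM in Cre_Neg fibroblast-like cells. Endothelium-like cells had 1.80 and 1.96 CPM of it, log2 ratios of 4.34 (3.88 to 4.80) and 4.37 (3.77 to 4.99). Dync2li1 had 0.879 and 1.69 CPM in endothelium-like cells, log2 ratios of 4.14 and 3.20. By the free RNA share, free RNA would bring up to 1.27 and 1.46 CPM of the Ttc8 level in endothelium-like cells. For Dync2li1 it would bring up to 0.764 and 0.570 CPM. The sizes of these ratios therefore depend on background. Ift43, by contrast, had 80.8 and 89.4 CPM in endothelium-like cells and 89.3 and 84.9 CPM in fibroblast-like cells, ratios of 0.14 (-0.07 to 0.35) and -0.07 (-0.32 to 0.17).

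Neuroendocrine-like cells, sensory cells of the airway, were set against fibroblast-like cells. Of 38 members in Cre_Pos 12, and of 37 in Cre_Neg 7, were at least 2-fold higher, beside 23.3% and 22.3% of all genes, so the members' shares were near the background. The 6 that passed in both pools were Ift57, Bbs2, Bbs4, Bbip1, Arl6 and Arl3. Arl3 had 95.2, 95.9, 48.4 and 79.8 CPM in Cre_Pos and 85.1, 110, 114 and 87.4 CPM in Cre_Neg neuroendocrine-like cells, against 24.4 and 23.3 CPM in fibroblast-like cells. Its log2 ratios were 1.69 (1.27 to 2.14) and 2.09 (1.60 to 2.62). Tulp3 ran the other way, with -1.40 (-1.96 to -0.86) and -0.93 (-1.59 to -0.29).

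In T cell-like cells, Ift80 stood at or above its level in ciliated-like cells. This IFT-B gene had 353, 250, 470 and 322 CPM in the T cell-like cells of the Cre_Pos sublibraries and 90.5, 207, 265 and 343 CPM in Cre_Neg. Ciliated-like cells had 177 CPM in Cre_Pos and 185 CPM in Cre_Neg, for log2 ratios of ciliated-like over T cell-like cells of -0.88 (-1.10 to -0.65) and -0.20 (-0.55 to 0.17). In Cre_Pos every sublibrary had more in T cell-like cells, and in Cre_Neg 3 of 4. The T cell-like values rest on 271 and 68 UMIs. Ttc21b had 21.6 CPM in Cre_Pos T cell-like cells (18 UMIs) and 9.41 CPM in Cre_Neg (3 UMIs), and the intervals of its ratio, -0.74 to 0.92 and -0.35 to 3.49, include 0. Ift80 shares its interval with 4 other annotated genes on the same strand (GENCODE, build GRCm38), so some reads may belong to those. Members such as Ift43 had no UMI in T cell-like cells, for which the exact Poisson upper limit is 4.43 CPM in Cre_Pos and 11.6 CPM in Cre_Neg.

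A small cluster of 62 Cre_Pos and 65 Cre_Neg cells was led by Cdc20b and Deup1, genes of the centriole amplification that precedes multiciliation, together with axonemal genes. Its median depth, 1051.5 UMIs in Cre_Pos and 2207 UMIs in Cre_Neg, was far below that of ciliated-like cells, 17104.5 and 15731 UMIs, and it was left without a cell type name. It held 7451 and 6686 summed CPM of the members, close to ciliated-like cells, while its axonemal genes summed to 15611 and 16877 CPM. Its cells held 675182 and 511813 UMIs in all, so the pool values rest mostly on its deepest cells. The median cell had 7507 and 6311 summed CPM of the members. At least 2-fold lower than in ciliated-like cells were 3 of 39 members in Cre_Pos and 5 of 40 in Cre_Neg, beside 22.0% and 26.1% of all genes.

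Only Kifap3 passed in both pools, with 123, 133, 128 and 128 CPM in Cre_Pos and 195, 130, 129 and 107 CPM in Cre_Neg against 272 and 276 CPM in ciliated-like cells. The log2 ratios of Kifap3 were -1.08 (-1.42 to -0.75) and -1.03 (-1.40 to -0.69). Traf3ip1 had 369 and 582 CPM, log2 ratios of -1.37 and -0.76, and Wdr19 had 99.2 and 97.7 CPM, log2 ratios of -0.93 and -1.01. Ift22 and Ift172 ran the other way. Ift22, a small GTPase-like IFT-B subunit, had 114 and 123 CPM against 57.6 and 61.4 CPM, and Ift172 had 410 and 346 CPM against 216 and 229 CPM. Ift27 had 25 UMIs in Cre_Pos and 3 in Cre_Neg, 37.0 and 5.86 CPM, so its level in this cluster was set by few molecules. With equal weight for every cell the Traf3ip1 ratio in Cre_Pos was 0.00. Kifap3 no longer passed 2-fold in both pools with equal weights, with median-ratio scaling, or without the second or the third sublibrary.

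Within ciliated-like cells, the members were at similar levels in both pools. Of 40 measured, 1 was at least 1.5-fold lower in Cre_Pos and 0 were at least 1.5-fold higher, where 10.8% and 8.37% of all genes passed. The median log2 ratio of Cre_Pos over Cre_Neg was -0.05, against 0.02 for all genes, and the medians of the 4 sublibraries had an SD of 0.10. Of the members, 13 lay above 0 and 27 below. The median of the BBSome regulators was -0.20, and those of the other complexes lay between -0.10 and 0. Sex goes with the pool in these cells, and its values are given below for Y-linked cells and within Cre_Neg. The part of the individual animal was not tested.

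Kif17 was the single member past 1.5-fold. It had 19.6, 11.9, 1.29 and 16.2 CPM in Cre_Pos and 16.4, 21.0, 16.3 and 17.8 CPM in Cre_Neg, a log2 ratio of -0.69 (-1.32 to -0.11) from 26 and 357 UMIs. The third Cre_Pos sublibrary was low and the first lay within the Cre_Neg range. Without the third sublibrary the ratio was -0.20 and without the first -1.24, so the value rests on single sublibraries. Kif17 also overlaps Sh2d5 on the same strand in the annotation.

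Among the members with at least 100 UMIs, Bbs7 was the furthest up. It had 115, 115, 103 and 138 CPM in Cre_Pos and 94.6, 90.6, 86.1 and 104 CPM in Cre_Neg, a log2 ratio of 0.30 (0.11 to 0.49). All 4 sublibraries lay above 0, but the CPM ranges of the pools overlapped, with the lowest Cre_Pos value at 103 and the highest Cre_Neg value at 104. Lztfl1 had a ratio of -0.23 (-0.42 to -0.06), with sublibraries at -0.03, -0.25, -0.30 and -0.40. Ift20 had -0.29 (-0.63 to 0.04), with every sublibrary of Cre_Pos below every one of Cre_Neg. Ift140 had 193, 163, 182 and 202 CPM in Cre_Pos and 207, 214, 225 and 203 CPM in Cre_Neg, a ratio of -0.21 (-0.35 to -0.06) without overlap. Ttc30b had 19.6, 29.8, 18.1 and 32.4 CPM against 27.0, 26.1, 30.1 and 23.9 CPM, and its sublibraries overlapped.

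The other members furthest up were small differences. Ift52 had 76.9, 71.4, 76.3 and 116 CPM in Cre_Pos and 75.1, 73.0, 80.8 and 74.1 CPM in Cre_Neg. Arl3 had 148, 117, 111 and 183 CPM in Cre_Pos and 124, 128, 126 and 134 CPM in Cre_Neg. Ift57 had 184, 224, 155 and 205 CPM in Cre_Pos and 175, 170, 190 and 180 CPM in Cre_Neg. For all 3 the Cre_Pos sublibraries lay on both sides of the Cre_Neg ones.

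Restricted to ciliated-like cells with Y-linked UMIs only, 101 in Cre_Pos and 177 in Cre_Neg, Bbs7 had 0.19 (-0.06 to 0.44), Lztfl1 -0.03 (-0.27 to 0.21), Ift20 0.04 (-0.39 to 0.46) and Kif17 -0.37 (-1.17 to 0.39). In the same cells Bbs9 had 0.29 (0.19 to 0.39) and Ift43 0.28 (0.14 to 0.42). Of the 5 members furthest down in all ciliated-like cells, the interval left out 0 among these male cells for Ift140 alone, at -0.25 (-0.44 to -0.07). Between the sexes within Cre_Neg ciliated-like cells, Y-linked over Xist cells, Lztfl1 had -0.24 (-0.40 to -0.09), Ift20 -0.24 (-0.53 to 0.04), Kif17 -0.39 (-0.87 to 0.06) and Bbs9 -0.29 (-0.36 to -0.22). Lztfl1, Ift20 and Kif17 thus lay below 0 both in Cre_Pos over Cre_Neg and in Y-linked over Xist cells. Bbs7 lay above 0 in both, at 0.13 (-0.05 to 0.31) between the sexes. Other members ran in opposite directions. Ift140 and Ttc30b, below 0 in Cre_Pos over Cre_Neg, had 0.15 (0.03 to 0.27) and 0.14 (-0.20 to 0.47) between the sexes. Ift43, at 0.09 between the pools, had -0.21 (-0.31 to -0.11). The part of sex in the pool ratios was not tested.

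In the same cells the transition zone and axonemal lists were also near 0, and Foxj1 was lower in Cre_Pos by less than 1.5-fold. The transition zone list had a median of -0.07 and the axonemal list -0.09, with no gene past 1.5-fold in either. Foxj1, the transcription factor of motile cilia, had 337 CPM in Cre_Pos and 445 CPM in Cre_Neg, a log2 ratio of -0.40 (-0.51 to -0.29). Foxj1 was not compared by sublibrary or among Y-linked cells. Of the same list of transcription factors, Rfx3 had 1055 and 1096 CPM, Rfx2 460 and 474 CPM and Trp73 312 and 334 CPM.

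Over all kept cells the members were lower in Cre_Pos. All 40 had a log2 ratio below 0, and 36 were at least 1.5-fold lower, where 22.6% of all genes passed. The median was -1.08, against -0.06 for all genes. Traf3ip1 had 57.9, 42.6, 53.2 and 41.9 CPM in Cre_Pos and 273, 265, 259 and 249 CPM in Cre_Neg, a log2 ratio of -2.43. Ttc8 followed at -2.01 and Ift88 at -1.88. Ttc21b had 27.8, 25.6, 25.1 and 24.8 CPM in Cre_Pos and 27.5, 27.3, 27.9 and 27.7 CPM in Cre_Neg, a ratio of -0.10 (-0.18 to -0.01). The pools were far apart for Traf3ip1 and overlapped for Ttc21b. Ift52, Bbip1 and Bbs10 were the others that did not pass 1.5-fold.

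**Figure D4:**
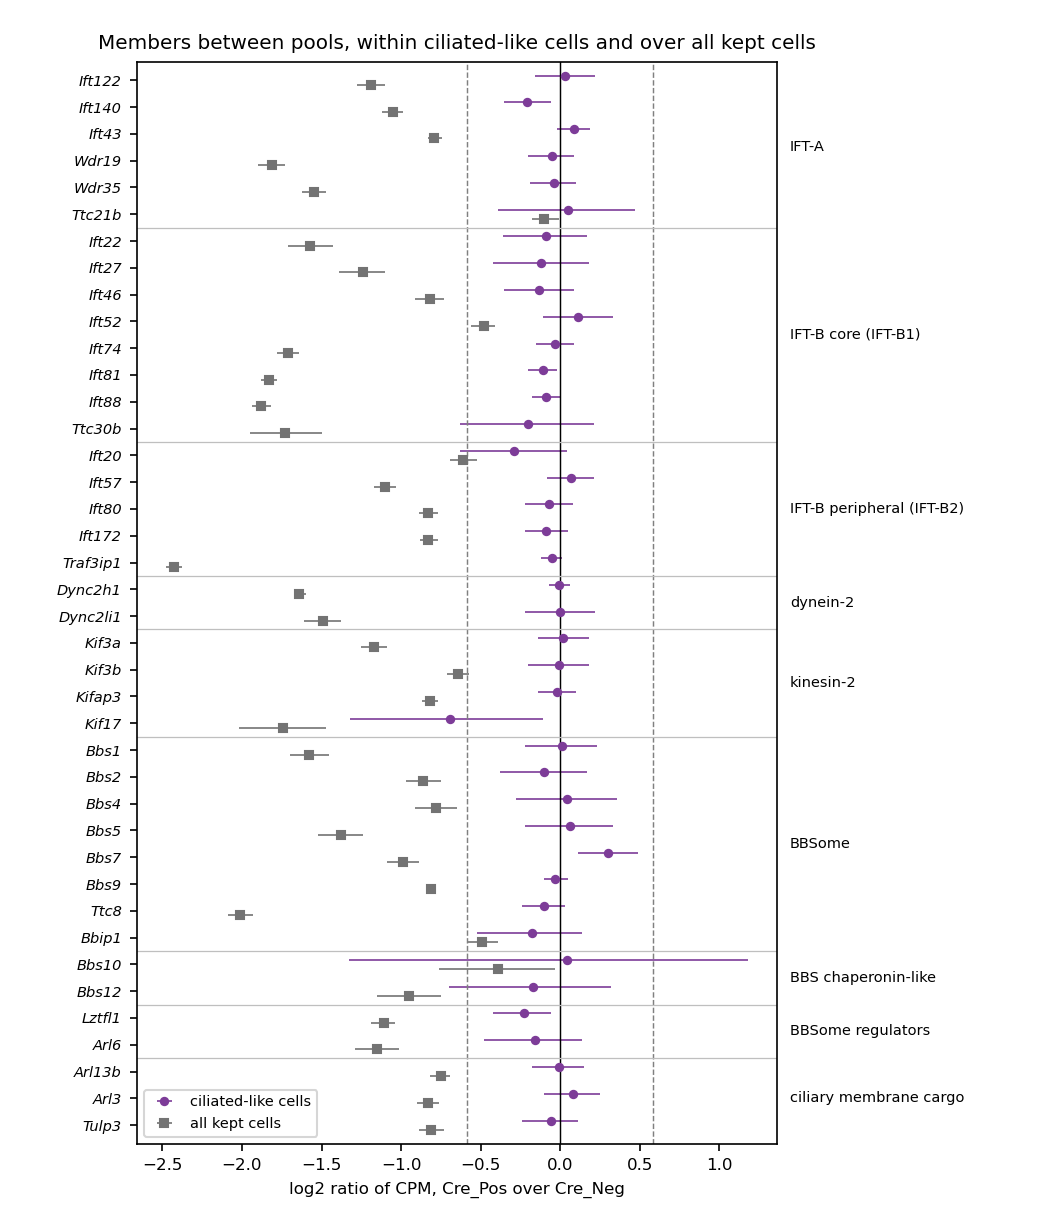
Log2 ratio of CPM in Cre_Pos over Cre_Neg for each member, within ciliated-like cells (purple circles) and over all kept cells (grey squares); bars are exact 95% intervals and dashed lines mark a 1.5-fold change. Within ciliated-like cells the members lie around 0 with Kif17 lowest at -0.69, and over all kept cells they reach -2.43 for Traf3ip1.

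In sums over all cells, fewer cells of a type and less RNA in each cell cannot be told apart, but the classes were counted. Ciliated-like cells were 1.39% of kept cells in Cre_Pos and 15.6% in Cre_Neg. Other classes also took different shares, with endothelium-like cells at 65.2% in Cre_Pos and 35.9% in Cre_Neg and AT2-like cells at 17.1% and 27.0%. Without ciliated-like cells and the cluster led by Cdc20b and Deup1, the median of the members was -0.11 and 1 member was past 1.5-fold. The axonemal list had a median of -2.96 over all kept cells and the transition zone list -1.54.

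The lower level over all kept cells was found among Xist cells and not among Y-linked cells. The share of ciliated-like cells differed in the same way. They were 0.0422% of Xist cells in Cre_Pos and 16.5% in Cre_Neg, and 19.1% and 15.4% of Y-linked cells. Among cells with Xist UMIs only, the members summed to 956 CPM in Cre_Pos and 2683 CPM in Cre_Neg, a log2 ratio of -1.49, with sublibraries at -1.50, -1.54, -1.44 and -1.44. Among cells with Y-linked UMIs only they summed to 2779 CPM in Cre_Pos and 2481 CPM in Cre_Neg, a ratio of 0.16, with sublibraries at 0.28, 0.11, 0.08 and 0.18. Among those Y-linked cells 33 of the 40 members were above 0, with a median of 0.13. The summed members were thus lower in Cre_Pos among Xist cells and not among Y-linked cells, as was the share of ciliated-like cells. The part of that share in the sums was not tested. How many of the 6 mice of a pool were of each sex is not given in the labels used here, and the difference between the sexes was not tested.

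**Figure D5:**
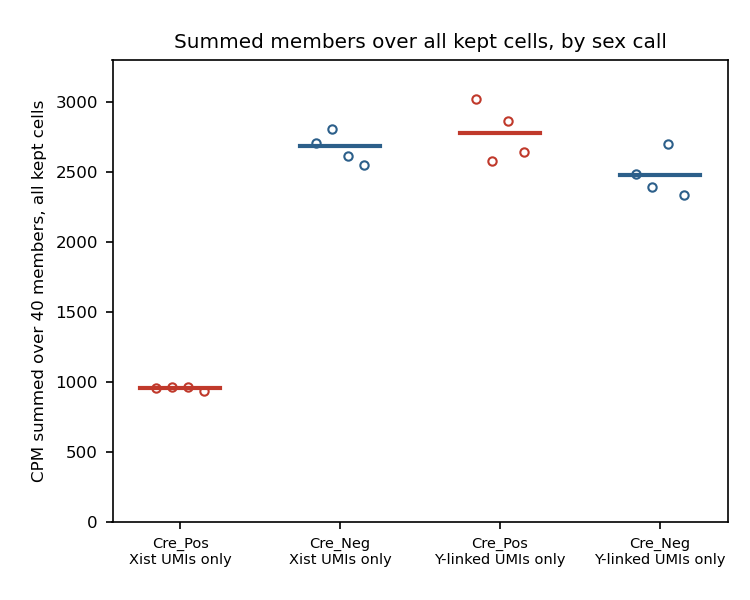
CPM summed over the 40 members across all kept cells, for cells with Xist UMIs only and cells with Y-linked UMIs only; bars are pool values and open circles the 4 sublibraries, with Cre_Pos left of Cre_Neg. Cre_Pos lies at 956 CPM against 2683 CPM in Cre_Neg among Xist cells, and at 2779 CPM against 2481 CPM among Y-linked cells. Ciliated-like cells were 0.0422% of Xist cells in Cre_Pos and 16.5% in Cre_Neg, and 19.1% and 15.4% of Y-linked cells.

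In AT2-like, endothelium-like and mesenchymal cells few members passed 1.5-fold between the pools. In AT2-like cells no member passed 1.5-fold in either direction, where 4.17% of all genes were higher and 5.13% lower, and the median was -0.06. The extremes were Ttc30b at -0.45 and Arl6 at 0.39. In blood endothelium-like cells 1 member, Dync2li1, was lower, at 0.879 CPM in Cre_Pos and 1.69 CPM in Cre_Neg, and none was higher, where 7.10% of all genes were lower and 4.37% higher. Its ratio of -0.94 was -3.26 with free RNA subtracted. By the free RNA share, up to 87.0% of the Cre_Pos and 33.7% of the Cre_Neg level would be free RNA. The value of -3.26 depends on that share. In mesenchymal cells 4 of 39 were lower and none higher, where 12.9% of all genes were lower and 11.4% higher. These 4 were Wdr35, Ift22, Bbs4 and Bbs12, of which Wdr35 had 28.7 CPM in Cre_Pos and 45.6 CPM in Cre_Neg, a ratio of -0.67 (-1.06 to -0.29). The mix of mesenchymal cells also differed between the pools. Wdr35 had 77.4 CPM in Cre_Pos and 62.3 CPM in Cre_Neg mesothelial-like cells, a ratio of 0.31 (-0.32 to 0.94). In pericyte-like cells it had 9.43 CPM (8 UMIs) and 42.3 CPM (7 UMIs). The part of the mix in these ratios was not tested. The shares of members that passed did not exceed those of all genes in any of these 3 classes.

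Some smaller classes held more members past 1.5-fold, many from few UMIs. In T cell-like cells 4 of 13 members with enough UMIs were higher and 4 lower in Cre_Pos, beside 15.8% and 14.9% of all genes. Their intervals left out 0 for Ift172 at -2.29 (-3.74 to -0.96), Lztfl1 at -1.39 (-2.56 to -0.21) and Ift80 at 0.61 (0.22 to 1.01). Ift172, from 8 and 15 UMIs, was below 0 in all 4 sublibraries. Sublibraries lay on both sides of 0 for Lztfl1, at -2.82, -0.20, 0.17 and -1.54, and for Ift80, at 1.96, 0.27, 0.83 and -0.09. In monocyte-like cells 1 of 11 was higher and 4 lower, beside 10.7% and 10.1%, with Dync2h1 at 19.7 CPM in Cre_Pos and 45.4 CPM in Cre_Neg, a ratio of -1.20 (-2.07 to -0.39). Its sublibraries were at 0.88, -1.26, -1.44 and -3.66. B cell-like cells had 5 of 20 higher and 2 lower, beside 11.6% and 11.7%. In secretory-like cells 8 of 33 were higher and 1 lower, beside 10.4% and 14.9%, and of these 9 only Dync2h1 had an interval that left out 0, at 125 CPM in Cre_Pos and 64.4 CPM in Cre_Neg, a ratio of 0.96 (0.55 to 1.37). The axonemal genes of secretory-like cells summed to 190 CPM in Cre_Pos and 122 CPM in Cre_Neg, and their part was not tested. Secretory-like cells were 48 in Cre_Pos, of which 5 had Xist and 14 had Y-linked UMIs only. In Cre_Neg they were 161, of which 68 had Xist and 14 had Y-linked UMIs only. Genotype, sex and animal cannot be told apart in this ratio. Neuroendocrine-like cells had 3 of 38 higher and 1 lower, beside 8.69% and 8.47%.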

How the data were processed

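The deposited files hold UMI counts for each gene and barcode, with a cell table and a gene table; per the labels' protocols, fixed cells were barcoded with the Parse Evercode WT v2 kit. The aligner and the strand used for counting were not stated. The submitters' processing notes name GRCm39 and the gene table names mm10, so no coordinates of the files are given. No column of per-sample values was left unused (0).

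Barcodes needed 500 genes or more and no more than 15% mitochondrial UMIs, which 16541 of 647296 met, and 185 doublets called by Scrublet, 1.12%, were removed, which left 16356. Cells were clustered with scanpy 1.11.5 and leidenalg 0.10.2 (3000 variable genes, 30 components, 15 neighbours, resolution 1) into 33 clusters, which were named from at least 3 detected markers of a marker list; 2 clusters stayed unnamed. Class names rest on this rebuilding and not on an annotation of the authors.

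UMIs were summed over the cells of a class in a pool and given as CPM. Ratios have an exact conditional binomial interval, levels an exact Poisson interval and shares an exact Clopper-Pearson interval, each of 95%; PCR and library effects are not in them, so they cover counting error only. With 1 pool for each genotype no p-value was computed. A gene counted as higher or lower at 2-fold between classes and 1.5-fold between pools, with at least 20 UMIs over both sides. The ratio code was tested on simulated counts. Members and lists were chosen with earlier results of these data known. Members with sublibrary values are, in each complex, the one with the most UMIs in ciliated-like cells, the 5 highest and 5 lowest in ciliated-like over mesenchymal cells, and the 5 furthest up and down between pools with at least 100 UMIs. A cell was called Xist or Y-linked when it had UMIs of one kind only.

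Alternatives were another weighting or scaling, cells with at least 1000 genes, no filter on low counts, doublets kept, each sublibrary left out, and cells of 1 sex. Free RNA subtraction in the class contrasts, fibroblast-like cells alone, leaving out the smaller ciliated-like cluster, counting the Cdc20b cluster as ciliated-like, and leaving both out were chosen after seeing the data.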

Additional observations from a re-analysis of the deposited data

Results flagged for a closer look

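Summed over the members and all kept cells, the log2 ratio of Cre_Pos over Cre_Neg was 0.16 among cells with Y-linked UMIs only and -1.49 among cells with Xist UMIs only. It was picked out because all 4 sublibraries lay above 0 for the Y-linked cells and all 4 below 0 for the Xist cells. Ciliated-like cells were 0.0422% of the Xist cells in Cre_Pos and 16.5% in Cre_Neg, and 19.1% and 15.4% of the Y-linked cells. The difference was not tested, and each pool holds an unstated number of animals of each sex.

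In ciliated-like cells, the levels of each member over the 4 sublibraries of a pool were searched for a sublibrary far from the other 3, in 80 groups. Chance flags about 1 group in 20, and 2 were found. Ift52 had 116 CPM in the fourth Cre_Pos sublibrary, against 76.9, 71.4 and 76.3 CPM in the others. That sublibrary held 16 ciliated-like Cre_Pos cells, the fewest of the 4. Ift46 had 91.1 CPM in the third Cre_Neg sublibrary, against 88.0, 88.1 and 88.0 CPM in the others, a gap that stands out because those 3 were close together.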

How the results depend on the processing

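The number of members at least 2-fold higher in ciliated-like cells in both pools stayed between 36 and 38 over mesenchymal cells under every alternative run, and between 37 and 38 over AT2-like cells. The median pool ratio within ciliated-like cells stayed between -0.10 and 0.02. That of endothelium-like cells stayed between -0.07 and 0.04 and that of mesenchymal cells between -0.23 and -0.05. The count of members lower in the cluster led by Cdc20b and Deup1 than in ciliated-like cells in both pools was 1, and lay between 0 and 2 with a sublibrary left out. It was 0 when every cell weighed the same or with median-ratio scaling, and 2 among cells with at least 1000 genes. With equal weights in Cre_Pos the ratios of Traf3ip1 and Arl13b turned to 0.00 and 0.10; the cause was not tested.

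The AT2-like median of -0.06 was 0.08 among Y-linked cells. Over all kept cells the median of -1.08 was -0.84 with equal weights, 0.13 among Y-linked cells, -1.32 among Xist cells and -0.11 without ciliated-like cells and that cluster. The number of members past 1.5-fold, 36, was 27 with equal weights and 1 among Y-linked cells or without those classes. In other cells that number ranged from 0 to 2 in ciliated-like (1 as reported), 0 to 5 in AT2-like (0), 1 to 6 in endothelium-like (1) and 4 to 9 in mesenchymal cells (4). Traf3ip1 turned to 0.12 among Y-linked cells and 0.04 without those classes. The share of ciliated-like cells with a UMI of the median member was 82.1% in Cre_Pos and 75.2% in Cre_Neg without thinning, and 10.4% and 11.1% at 1000 UMIs.

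The alternatives that could not be fitted were the ciliated-like pools among Xist cells (3 Cre_Pos cells) and the mesenchymal pools among Y-linked cells. No paired analysis was possible because each genotype is 1 pool. Depth limits Bbs10, Bbs12 and Kif17 most, and the 120 Cre_Pos ciliated-like cells set the precision of the comparison between pools.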
